A study of Homo sapiens with 12 samples.

Results

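The nuclear genes for the subunits of the mitochondrial respiratory chain and ATP synthase were followed in RNA-seq counts from 2 human colorectal cancer cell lines, DLD1 and SW480, cultured with or without added lactate. Members were taken by symbol: the NDUFA, NDUFB, NDUFC, NDUFS and NDUFV genes, SDHA to SDHD, the UQCR genes, CYC1, CYCS, the COX genes of the common subunits, and symbols that start with ATP5. Of 54261 symbols in the table, 129 matched, 48 of these were pseudogene symbols and were left out, and 81 remained as members. They comprise 37 genes of complex I, 4 of complex II, 9 of complex III, cytochrome c (CYCS), 11 of complex IV (with NDUFA4, now COXFA4, a subunit of that complex despite its older name), 15 of complex V and 4 other ATP5 symbols. The table uses older symbols: 61 members carry a current symbol and 20 were matched through an older one, so that ATP5A1 is now ATP5F1A and ATP5G3 is now ATP5MC3. The 4 groups were DLD1 with lactate, DLD1 without lactate (DLD1 control), SW480 with lactate and SW480 without lactate (SW480 control), each with 3 libraries described as biological replicates. Both are established lines. For the dose of lactate and the length of treatment no source used here gives a value.

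Complexes I and II pass electrons from NADH and succinate to ubiquinone, complex III passes them on to cytochrome c, and complex IV passes them to oxygen. Complexes I, III and IV pump protons across the inner mitochondrial membrane, and complex V, the ATP synthase, uses the return of these protons to make ATP. Subunits come from both genomes: mitochondrial DNA encodes a small hydrophobic core of complexes I, III, IV and V, and nuclear genes encode the rest, and complex II entirely. Lactate is oxidised to pyruvate by lactate dehydrogenase, which yields NADH and a fuel for mitochondria.

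Total counts per library ran from 12302311 to 22662063. The libraries labelled SW480 held few transcripts of the defining epithelial markers: EPCAM averaged 0.638 ± 0.240 CPM (counts scaled to the size of the library, with TMM factors) with lactate and 0.988 ± 0.189 CPM in controls (SD, n = 3 each). DLD1 libraries held 646 ± 18.1 CPM of EPCAM with lactate and 687 ± 18.5 CPM in controls. Of the 9 epithelial markers examined, KRT8, KRT18 and KRT19 were abundant in the libraries labelled SW480, CDH1, CDX1, CDX2, EPCAM, LGALS4 and VIL1 were at or near 0, and in DLD1 only CDX1 and LGALS4 were. The libraries labelled SW480 also held DCN, a gene of fibroblasts, with 68.2 ± 10.4 CPM with lactate and 83.2 ± 5.88 CPM in controls, where DLD1 held 0 counts with lactate and 0.144 ± 0.0526 CPM in controls. Statements about SW480 therefore rest on the label. Within these libraries the summed epithelial markers were 1418 to 1752 CPM with lactate and 1997 to 2349 CPM in controls. The summed fibroblast markers were 247 to 271 CPM with lactate and 255 to 267 CPM in controls, and the summed immune markers 91.8 to 117 CPM with lactate and 36.0 to 57.2 CPM in controls. Most of the immune sum was CD68, a lysosomal gene, while the leukocyte gene PTPRC averaged 0.163 ± 0.144 CPM with lactate and 0.0812 ± 0.0900 CPM in controls. In DLD1 the summed immune markers were 10.4 to 12.95 CPM with lactate and 3.44 to 8.65 CPM in controls, mostly CD68 again, and the summed endothelial markers 3.95 to 4.33 CPM with lactate and 1.72 to 2.51 CPM in controls, mostly VWF (3.87 ± 0.0879 CPM with lactate and 1.72 ± 0.472 CPM in controls). The immune and endothelial sums of the DLD1 groups did not overlap. The summed epithelial markers, 9072 to 10212 CPM in DLD1 with lactate and 6399 to 9191 CPM in DLD1 controls, and the summed fibroblast markers, 9.69 to 11.4 CPM with lactate and 8.54 to 10.7 CPM in controls, overlapped. The part of these shifts in the results below was not tested. In bulk RNA, fewer cells of a kind and less RNA per cell cannot be told apart.

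Most members were abundant. At least 1 group averaged 10 CPM or more for 74 members, and 78 members passed the low-count filter of the test. NDUFA3, ATP5L2 (now ATP5MGL) and ATP5J2LP (now ATP5MFP1) had too few counts to be tested. Levels of different genes were compared as CPM per kilobase of transcript, for the 54 members whose reference transcript has at most 3000 bases and whose longest annotated transcript is at most 1.5 times as long. On that scale ATP5B (now ATP5F1B), the catalytic beta subunit of the ATP synthase, led complex V with 499 CPM per kb in DLD1 controls and 865 CPM per kb in SW480 controls. The lowest of complex V was ATP5J2 (now ATP5MF), with 79.0 CPM per kb in DLD1 controls and 83.9 CPM per kb in SW480 controls. In complex IV the regulatory subunit COX4I1 led with 499 CPM per kb in DLD1 controls and 492 CPM per kb in SW480 controls, and NDUFA4 was lowest, with 67.2 CPM per kb in DLD1 controls and 125 CPM per kb in SW480 controls. UQCRH, the hinge protein that binds cytochrome c1, led complex III with 304 CPM per kb in DLD1 controls and 384 CPM per kb in SW480 controls. The core protein UQCRC2 was lowest there, with 89.3 CPM per kb in DLD1 controls and 84.1 CPM per kb in SW480 controls. NDUFB8, of the membrane arm, led complex I with 212 CPM per kb in DLD1 controls and 304 CPM per kb in SW480 controls. SDHB, the iron-sulfur subunit, led complex II with 94.7 CPM per kb in DLD1 controls and 102 CPM per kb in SW480 controls. The order below SDHB differed: SDHA, the flavoprotein, was lowest in DLD1 controls with 64.7 CPM per kb, and the membrane anchor SDHD was lowest in SW480 controls with 58.9 CPM per kb.

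A few subunit genes had almost no counts beside partners that were plentiful. NDUFA6, an accessory subunit of complex I, had 12, 28 and 25 counts in DLD1 with lactate and 34, 25 and 34 counts in DLD1 controls, and 0 counts in all 6 libraries labelled SW480. With a floor of 3 counts over the group in place of 0, its level was at least 25.8-fold higher in DLD1 controls than in SW480 controls, and at least 18.3-fold higher in DLD1 with lactate than in SW480 with lactate. NDUFA3 had at most 5 counts in any library. ATP5E (now ATP5F1E), the epsilon subunit of the F1 head, averaged 1.06 ± 0.144 CPM in DLD1 with lactate, 0.932 ± 0.775 CPM in DLD1 controls, 1.82 ± 0.646 CPM in SW480 with lactate and 3.83 ± 2.01 CPM in SW480 controls (SD, n = 3 each). The read-through genes SLMO2-ATP5E, NDUFC2-KCTD14 and ATP5J2-PTCD1 had 0 counts in every library. Exons of 23 members overlap another annotated gene on the same strand, and those of 33 members one on the opposite strand. No source used here says how the authors' counting treated shared exons and strand, so the levels of such members are uncertain. Pseudogenes named for a member have their own entries for 46 members, 221 in all and 45 for CYCS alone. Their counts came to 0.404% to 0.596% of the members' counts per library.

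In the libraries labelled SW480, lactate was set against control, which asks how the added metabolite changed expression. 5 of 78 tested members fell: ATP5G3, ATP5J (now ATP5PF) and ATP5A1 of the ATP synthase, and NDUFB2 and NDUFC2 of the membrane arm of complex I. 0 rose, where 6.83% of all tested genes were called higher. A gene was called where the Benjamini-Hochberg adjusted p of edgeR's quasi-likelihood test over all 17572 tested genes was under 0.05. The 5 are 6.41% of the members, near the 5.59% of all tested genes called lower. The lean below 0 was wider than the calls: 68 of 78 members (87.2%) had a log2 fold change below 0, against 50.7% of all tested genes, and the median was -0.20, against -0.01 over all tested genes. In 44 members (56.4%) all 3 lactate libraries lay below all 3 controls, which held for 20.4% of all tested genes. The same order held for 41 of 74 mitochondrial ribosomal protein genes, of which 86.5% were below 0. It also held for 26 of 49 assembly factors of the chain, of which 79.6% were below 0. At unadjusted p under 0.05 there were 17 members (21.8%), a smaller share than the 27.3% of all tested genes. The median standard error (SE) of a member was 0.14.

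**Figure D1:**
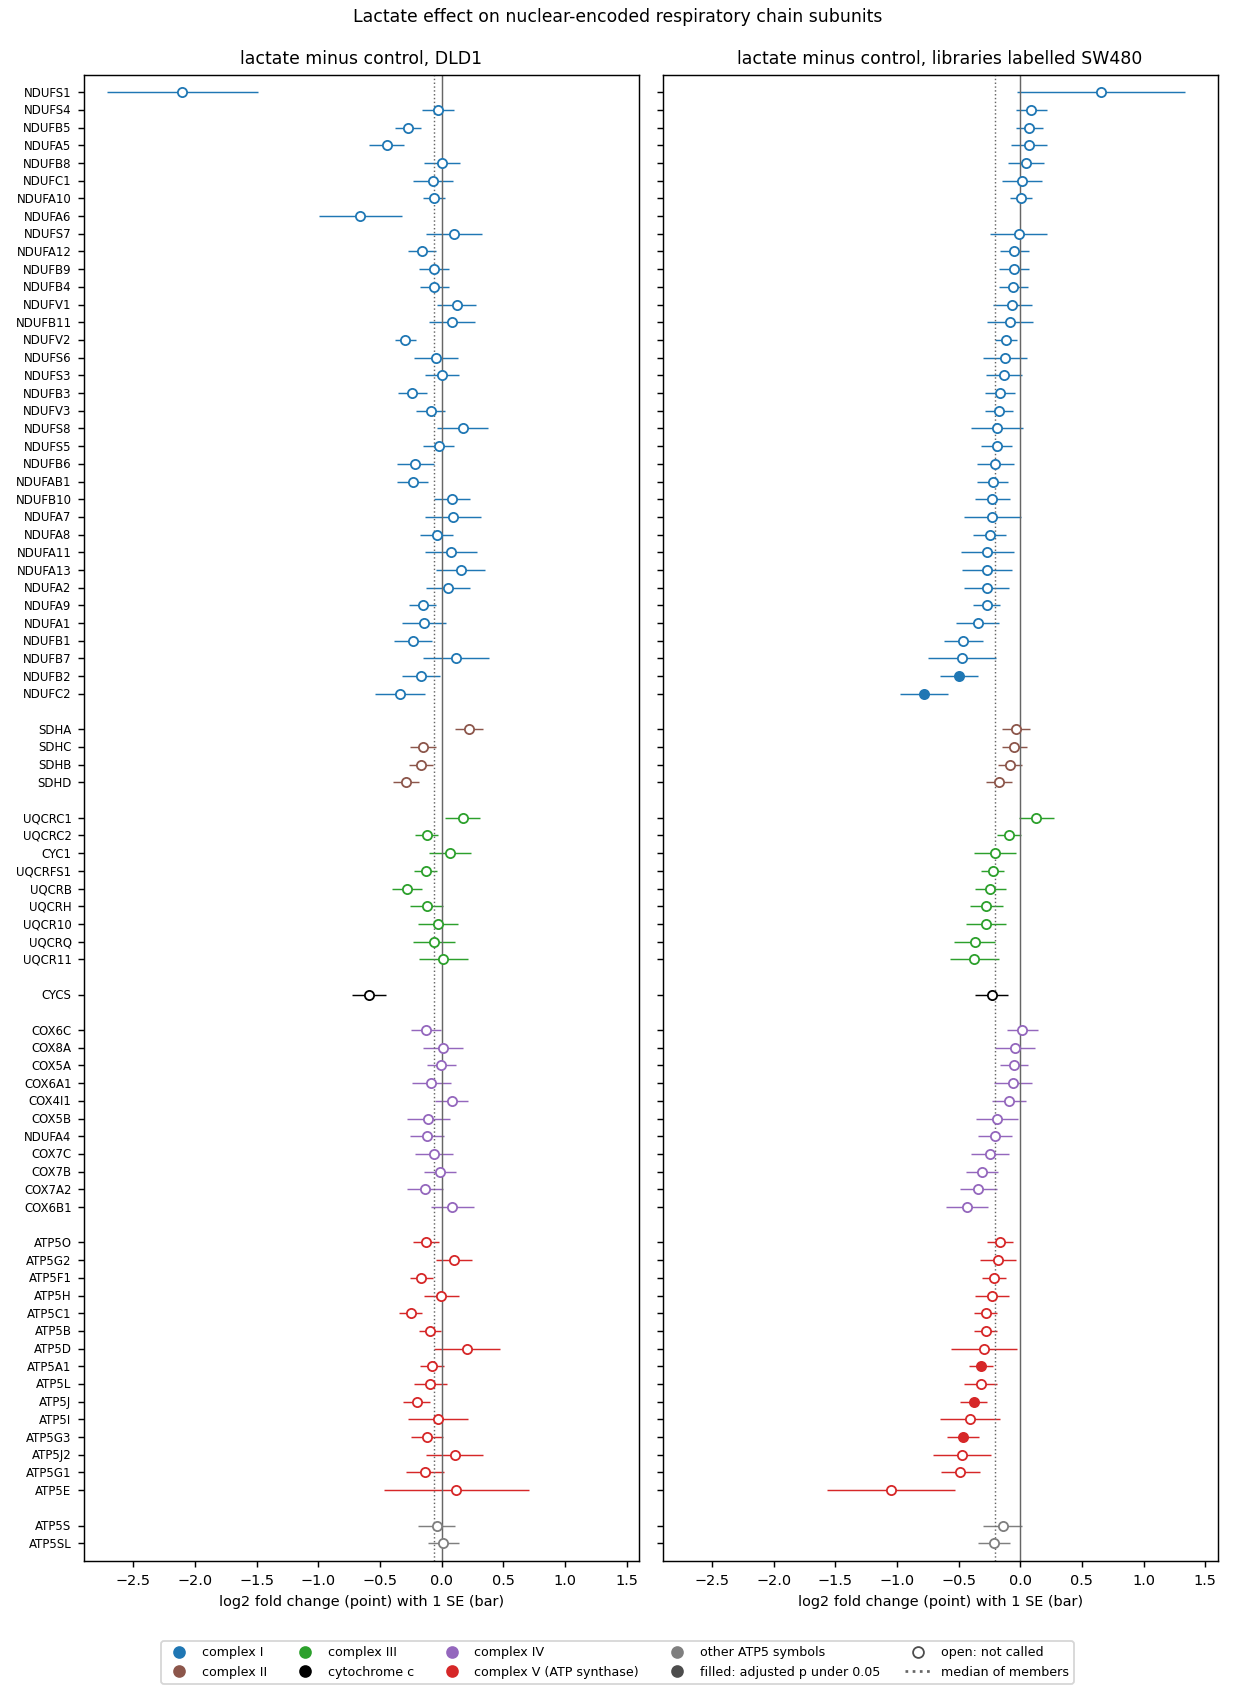
Log2 fold change of lactate over control for the tested members by complex, in DLD1 (left) and in the libraries labelled SW480 (right); bars are 1 SE, filled points are called at an adjusted p under 0.05, and the dotted line is the median of the members. 0 points are filled in DLD1 and 5 in the libraries labelled SW480, where all 15 members of complex V lie below 0; NDUFA6 has no point there, since it had 0 counts in both groups, and 1 further member is not drawn.

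Complex V leaned low in all of its members. All 15 were below 0 with a median of -0.32, 13 had each lactate library below each control, and 3 were called. ATP5G3, 1 of 3 nuclear genes for the c subunit of the rotor ring, had 244, 241 and 223 CPM with lactate, against 363, 311 and 303 CPM in SW480 controls. No lactate library reached the lowest control, and the log2 fold change was -0.47 ± 0.13 (SE, adjusted p = 0.0319). ATP5J, coupling factor 6 of the peripheral stalk, had 75.4, 75.0 and 79.1 CPM with lactate, against 102, 91.8 and 105 CPM in SW480 controls. Its groups did not overlap, with a log2 fold change of -0.38 ± 0.11 (SE, adjusted p = 0.0346), which was -0.22 and still called with a trend along GC content and transcript length removed in each library. ATP5A1, the alpha subunit of the catalytic ring, had 476, 480.4 and 444 CPM with lactate, against 616, 556 and 575 CPM in SW480 controls. Its log2 fold change was -0.32 ± 0.10 (SE, adjusted p = 0.0455), again without overlap. ATP5B, its partner in that ring, had 1330.3, 1334 and 1262 CPM with lactate and 1686, 1529 and 1558 CPM in SW480 controls. The groups did not overlap, but ATP5B did not pass the test (log2 fold change -0.28 ± 0.09, adjusted p = 0.0541).

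The other c subunit genes encode the same mature protein as ATP5G3 behind different import peptides. ATP5G1 (now ATP5MC1) had 80.0, 76.1 and 68.1 CPM with lactate and 116, 99.5 and 98.7 CPM in SW480 controls, without overlap (log2 fold change -0.49 ± 0.16, adjusted p = 0.0576). ATP5G2 (now ATP5MC2) had 194, 189 and 155 CPM with lactate and 216, 202 and 192 CPM in SW480 controls, which overlap (log2 fold change -0.18 ± 0.14, adjusted p = 0.452). ATP5G2 supplied 36.5% ± 1.54 of the c subunit counts with lactate and 32.1% ± 0.937 in SW480 controls, and ATP5G3 supplied 48.2% ± 1.56 with lactate and 51.4% ± 0.756 in SW480 controls (SD, n = 3 each). These shares were not tested. In DLD1, ATP5G3 had 261, 322 and 302 CPM with lactate and 369, 256 and 338 CPM in controls. ATP5G1 had 56.6, 71.4 and 63.1 CPM with lactate and 78.5, 50.2 and 80.9 CPM in DLD1 controls, and ATP5G2 had 110.0, 129 and 119.8 CPM with lactate and 123, 83.6 and 128 CPM in DLD1 controls. All 3 genes overlapped between the DLD1 groups, with the lowest value in control 2.

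Promoter windows from 250 bases before to 50 bases after the start, from RefSeq on GRCh38.p14, were found for 65 members. They were searched on both strands for letters bound by factors known from respiratory genes: NRF1 (GCGC and TGCGC separated by 1 base), the ETS family with GABPA (CCGGAAG), YY1 (AAGATGGC) and SP1 (GGGCGG); matches of different motifs may overlap. Some genes have several windows, and a match in any of them was counted. The NRF1 letters were in 15 of the 65 members (23.1%), against 6.98% of 27305 genes with a window. The ETS letters were in 20 (30.8%, against 12.2% of all genes), the YY1 letters in 12 (18.5%, against 3.52%) and the SP1 letters in 39 (60.0%, against 48.3%). A match describes letters and does not show binding. A window of each of 3 ATP synthase genes with a called lactate effect is shown, with the matches in capitals. That of ATP5C1 (chr10:7787927-7788226, plus strand) holds the NRF1 letters from base 229 and the SP1 letters from base 82. The window of ATP5J shown (chr21:25734855-25735154, minus strand) holds the YY1 letters from base 44, the ETS letters from bases 71 and 243 and the SP1 letters from base 229. The window of ATP5A1 shown (chr18:46098247-46098546, minus strand) holds the SP1 letters from base 167 and the ETS letters from base 203. A second window of ATP5J (chr21:25735005-25735304, minus strand) holds the YY1 letters from base 194 and the ETS letters from base 221 and no SP1 letters. A second window of ATP5A1 (chr18:46104178-46104477, minus strand) holds the SP1 letters from bases 25, 134 and 155 and no ETS letters. Bases count from 1 at the 5′ end, and a match may be on either strand.
ATP5C1: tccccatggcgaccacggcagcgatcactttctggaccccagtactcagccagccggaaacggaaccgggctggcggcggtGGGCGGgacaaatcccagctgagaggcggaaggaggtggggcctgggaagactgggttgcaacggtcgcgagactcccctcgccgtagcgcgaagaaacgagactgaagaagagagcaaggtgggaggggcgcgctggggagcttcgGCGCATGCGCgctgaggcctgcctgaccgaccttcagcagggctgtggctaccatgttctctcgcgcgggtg
ATP5J: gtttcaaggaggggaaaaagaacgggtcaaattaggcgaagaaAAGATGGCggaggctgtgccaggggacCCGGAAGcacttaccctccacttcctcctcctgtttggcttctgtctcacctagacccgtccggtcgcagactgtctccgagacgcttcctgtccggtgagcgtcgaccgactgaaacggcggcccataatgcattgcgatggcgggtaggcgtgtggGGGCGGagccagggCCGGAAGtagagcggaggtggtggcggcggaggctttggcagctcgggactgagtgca
ATP5A1: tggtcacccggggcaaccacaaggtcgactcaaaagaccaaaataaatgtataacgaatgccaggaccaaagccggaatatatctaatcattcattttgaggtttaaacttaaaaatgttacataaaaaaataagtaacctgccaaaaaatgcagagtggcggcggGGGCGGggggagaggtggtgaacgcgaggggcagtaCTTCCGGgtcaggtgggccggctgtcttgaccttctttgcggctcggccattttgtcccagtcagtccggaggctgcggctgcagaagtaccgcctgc

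In complex I, 28 of 36 tested members were below 0 with a median of -0.17, in 16 all lactate libraries were under all controls, and 2 were called. NDUFB2, an accessory subunit of the membrane arm, had 63.9, 65.1 and 55.9 CPM with lactate, against 95.4, 82.3 and 84.0 CPM in SW480 controls. Its groups were well apart, with a log2 fold change of -0.50 ± 0.15 (SE, adjusted p = 0.0472). NDUFC2, also of the membrane arm, had 5.19, 4.05 and 4.04 CPM with lactate, against 8.55, 8.50 and 5.81 CPM in SW480 controls. Its log2 fold change was -0.78 ± 0.20 (SE, adjusted p = 0.0189), from 79, 74 and 56 counts with lactate and 130, 102 and 98 counts in SW480 controls. NDUFC2 shares exons with NDUFC2-KCTD14, and NDUFB2 exons overlap ADCK2. By position, the 20 tested membrane-arm genes had a median of -0.21, the 6 of the quinone-binding Q module -0.16 and the 10 of the NADH-oxidising N module -0.09. 0 of the genes of these modules outside the membrane arm were called, and 1 had an unadjusted p under 0.05. NDUFV1, the flavoprotein that takes electrons from NADH, averaged 115 ± 12.7 CPM with lactate and 119.9 ± 4.70 CPM in SW480 controls (SD, n = 3 each, edgeR adjusted p = 0.838). NDUFS1, the largest core subunit, had 18, 28 and 67 counts with lactate and 27, 22 and 19 counts in SW480 controls (log2 fold change 0.66 ± 0.68, adjusted p = 0.577), with lactate replicate 3 far above the rest.

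Complexes II, III and IV and cytochrome c had 0 calls, with 5 members at unadjusted p under 0.05, 2 in complex III and 3 in complex IV. Complex III leaned low in 8 of 9 members with a median of -0.25, and in the same 8 each lactate library was below each control. UQCRFS1, the Rieske iron-sulfur protein, averaged 93.2 ± 5.71 CPM with lactate and 109 ± 6.88 CPM in SW480 controls (SD, n = 3 each, edgeR adjusted p = 0.137). CYC1, cytochrome c1, averaged 115 ± 6.67 CPM with lactate and 132 ± 7.77 CPM in SW480 controls (edgeR adjusted p = 0.477). The exception was the core protein UQCRC1, with 205 ± 15.2 CPM with lactate and 188 ± 7.23 CPM in SW480 controls (edgeR adjusted p = 0.598). CYCS, the mobile carrier between complexes III and IV, had 315, 337 and 369.6 CPM with lactate and 413, 374 and 413 CPM in SW480 controls, without overlap (edgeR adjusted p = 0.290). In complex IV the median of 11 members was -0.19, from -0.43 ± 0.17 (SE) for COX6B1, which lies where the complex pairs up as a dimer, to 0.02 ± 0.12 for COX6C. COX4I1 averaged 327 ± 32.6 CPM with lactate and 349 ± 19.1 CPM in SW480 controls, and NDUFA4 averaged 232 ± 17.1 CPM with lactate and 267 ± 24.1 CPM in SW480 controls (edgeR adjusted p of 0.714 and 0.370). Complex II had the median nearest 0, -0.07. SDHA averaged 198 ± 15.1 CPM with lactate and 203 ± 3.54 CPM in SW480 controls (SD, n = 3 each), a log2 fold change of -0.04 with an approximate 95% interval of -0.25 to 0.18. SDHB had a log2 fold change of -0.08 with an interval of -0.27 to 0.11, SDHC -0.05 with -0.25 to 0.16 and SDHD -0.17 with -0.38 to 0.04.

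**Figure D2:**
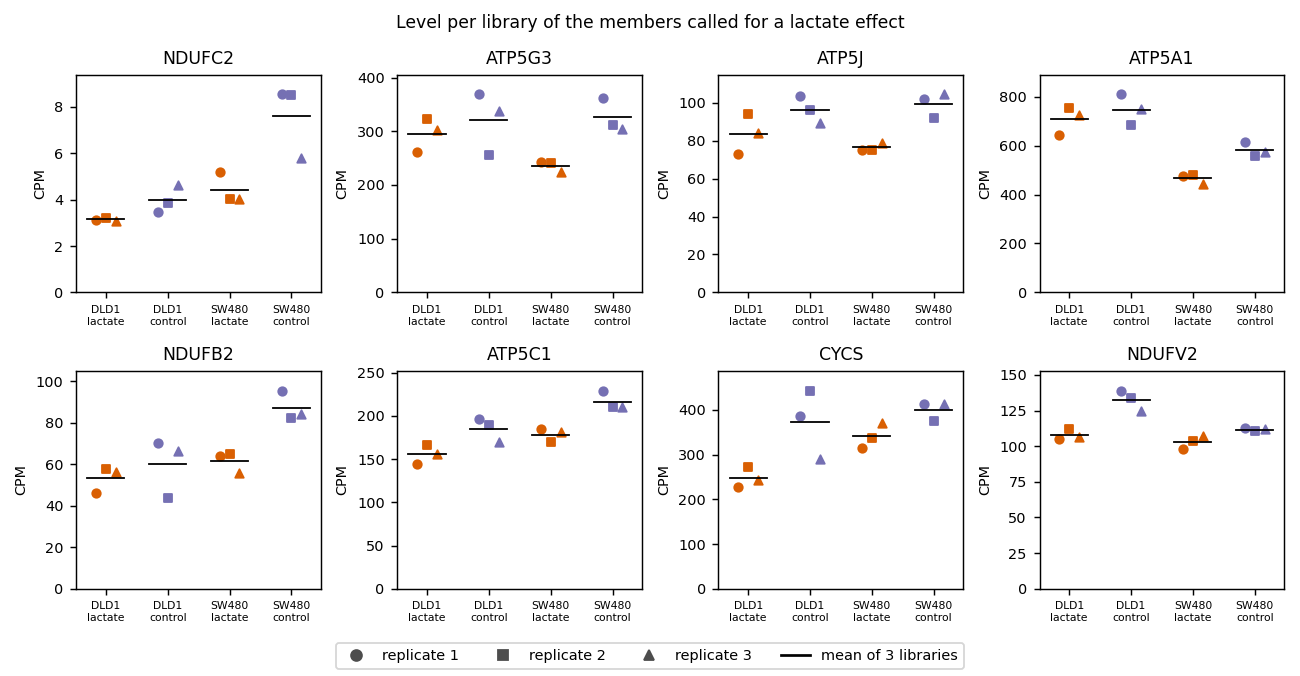
CPM per library of the 8 members named for lactate effects, in DLD1 with lactate, DLD1 control, SW480 with lactate and SW480 control; marker shapes give the replicate and bars the mean of 3 libraries. In NDUFC2, ATP5G3, ATP5J, ATP5A1 and NDUFB2 all 3 SW480 lactate libraries lie below all 3 SW480 controls. CYCS, ATP5C1, NDUFV2 and NDUFC2 show this order in both lines.

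The number of calls moved with the libraries that shared the estimate of the spread. Fitted on the 6 libraries labelled SW480 alone, 35 of 77 members fell (45.5%, against 14.2% of all genes tested in that fit): 12 of 15 in complex V, 11 of 35 in complex I, 7 of 9 in complex III, 4 of 11 in complex IV, CYCS, and 0 of 4 in complex II. Without DLD1 control 2, 24 of 78 fell (30.8%, against 11.6%), and without DLD1 control 3, 9 fell (11.5%, against 7.93%). With the trend along GC content and transcript length removed in each library, 19 fell (24.4%, against 14.6%) and NDUFB5 and NDUFS4 rose, with 0.20 and 0.24 on the log2 scale, against 0.07 and 0.09 as fitted; the 2 are 2.56% of the members, against 13.7% of all tested genes called higher. Without SW480 lactate 2, SW480 lactate 3 or SW480 control 1, edgeR called 0 members, and 1.41% to 2.25% of all genes were called lower. Without SW480 lactate 1, SW480 control 2, SW480 control 3 or DLD1 lactate 3, it called 1 (1.28%, against 3.97%, 3.79%, 3.01% and 4.15% of all genes called lower in these fits), and without DLD1 lactate 1 or DLD1 lactate 2, 3 (3.85%, against 4.28% and 4.47%). In each of these fits 61 to 69 members were below 0. With each of the 12 libraries left out in turn, NDUFC2 was called lower in 8 fits and ATP5J in 6. ATP5G3 was called in 5, NDUFB2 in 3 and ATP5A1 in 2.

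In DLD1, edgeR called 0 of 78 members for lactate, where 0.381% of all tested genes were called. At unadjusted p under 0.05 there were 8 members (10.3%), against 18.5% of all tested genes. DESeq2 called CYCS and NDUFV2 lower (2.56% of the members, against 1.9% of all tested genes called lower), and limma-voom called 0. The median of the members was -0.06, against 0.02 over all tested genes, and 53 of 78 were below 0 (67.9%, against 46.3%). In 6 members (7.69%) all lactate libraries were below all controls, near the 9.03% of all tested genes. CYCS had 227, 272 and 244 CPM with lactate, against 387, 443 and 289 CPM in DLD1 controls, and a log2 fold change of -0.59 ± 0.14 (SE, adjusted p = 0.0827). Its groups did not overlap, though control 3 lay close to the highest lactate library. NDUFV2, an iron-sulfur subunit of the N module, had 105, 112 and 107 CPM with lactate, against 139, 134 and 125 CPM in DLD1 controls, and -0.30 ± 0.09 on the log2 scale (SE, adjusted p = 0.136). NDUFA5, of the Q module, had 51.9, 59.2 and 53.9 CPM with lactate and 77.6, 90.1 and 57.6 CPM in DLD1 controls (-0.45 ± 0.14, adjusted p = 0.158). Only control 3 of NDUFA5 came down to the level of the lactate libraries, and its log2 fold change was -0.10 with the trend along GC content and length removed. SDHD averaged 108 ± 9.72 CPM with lactate and 132 ± 16.7 CPM in DLD1 controls (SD, n = 3 each, log2 fold change -0.29 ± 0.11, edgeR adjusted p = 0.189), and its log2 fold change was -0.06 with the trend removed. NDUFS1 had 29, 42 and 21 counts with lactate and 27, 131 and 199 counts in DLD1 controls. Its log2 fold change of -2.10 ± 0.61 rested on controls 2 and 3 and was 0.22 without them. The other 4 kept their direction in that fit, which keeps only DLD1 control 1. It gave -0.64 for CYCS, -0.36 for NDUFV2, -0.50 for NDUFA5 and -0.35 for SDHD.

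The other genes called in the libraries labelled SW480 were read in DLD1 as well. ATP5A1 had 643, 752 and 726 CPM with lactate and 809.9, 683 and 748 CPM in DLD1 controls, ATP5J had 72.9, 94.3 and 84.0 CPM with lactate and 104, 96.1 and 89.5 CPM in DLD1 controls, and NDUFB2 had 46.4, 57.7 and 56.4 CPM with lactate and 70.3, 43.9 and 66.3 CPM in DLD1 controls. The groups of ATP5A1, ATP5J and NDUFB2 overlapped. NDUFC2 had 3.14, 3.21 and 3.09 CPM with lactate and 3.47, 3.84 and 4.63 CPM in DLD1 controls, with every lactate library below every control (edgeR adjusted p = 0.369). SDHA leaned the other way, with a log2 fold change of 0.22 ± 0.11 (SE, adjusted p = 0.305).

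The DLD1 controls were the least even group. The coefficient of variation of a member was largest in DLD1 controls for 60 of 78 members, and its median was 9.21% in DLD1 with lactate, 19.9% in DLD1 controls, 6.47% in SW480 with lactate and 6.32% in SW480 controls. Over the members, the deviation of a library from its group mean followed the GC content of the transcript, with a Spearman rho of -0.74 in DLD1 control 2 and 0.78 in DLD1 control 3. The lactate effect in DLD1 followed it too. Over the 78 members, which share the same libraries, rho between GC content and log2 fold change was 0.68, against 0.56 over 15496 tested genes of known GC content, and it was -0.04 for the members in the libraries labelled SW480. Of 21 members under 45% GC, 20 were below 0 with a median of -0.15. Of 20 members with 55% GC or more, 2 were below 0 with a median of 0.09, and NDUFS8, a core subunit of the Q module, had 0.17 ± 0.21 (SE). With the trend along GC content and length removed, the medians of the same members were -0.00 and -0.11, 62 of 78 were below 0, and CYCS, NDUFB2 and NDUFV2 fell, with -0.39, -0.30 and -0.23 on the log2 scale. These 3 are 3.85% of the members, against 1.17% of all tested genes called lower in that fit. There the trend over the members was reversed, with a rho of -0.40, against -0.00 over all tested genes of known GC content. Without DLD1 control 3, 7 members were called lower (8.97%, against 10.6% of all genes tested in that fit), CYCS, NDUFV2, NDUFA5 and SDHD among them, and SDHA and ATP5D higher (2.56%, against 10.4%). In that fit rho between GC content and log2 fold change was 0.77 over the members. Without DLD1 control 2, 76 of 78 were below 0 with a median of -0.20 and edgeR called 0. Without DLD1 control 1 the median was 0.04. The fit without controls 2 and 3 keeps only DLD1 control 1. Its median was -0.25, against 0.03 over all genes, and 69 of 78 members were below 0.

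**Figure D3:**
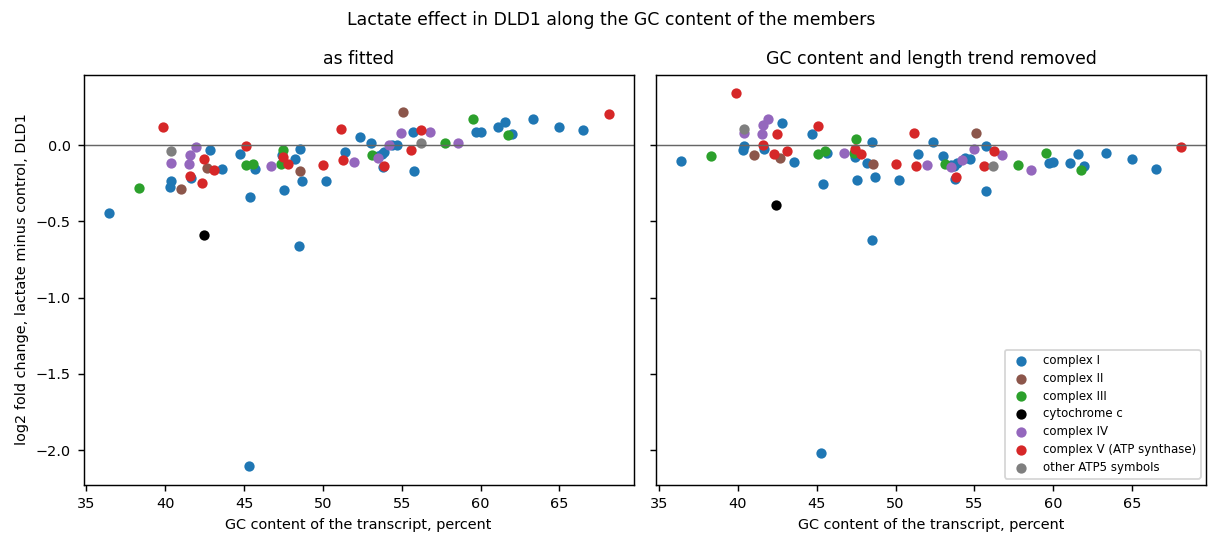
Log2 fold change of lactate over control in DLD1 against the GC content of the transcript in percent, 1 point per tested member, as fitted (left) and with the trend along GC content and length removed in each library (right). On the left the points rise with GC content (rho = 0.68), and on the right they fall with it (rho = -0.40).

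For the difference between the lactate effects of the lines (DLD1 minus SW480), edgeR called 0 of 78 members and 0.728% of all tested genes. At unadjusted p under 0.05 there were 3, NDUFS1, NDUFA5 and NDUFB5 (3.85%, against 16.8% of all tested genes). DESeq2 called NDUFS1 (1.28% of the members, against 2.44% of all tested genes called lower), and limma-voom called 0. The difference was -0.52 ± 0.21 (SE, adjusted p = 0.229) for NDUFA5, -0.35 ± 0.15 (adjusted p = 0.262) for NDUFB5, 0.52 ± 0.24 (adjusted p = 0.299) for COX6B1 and -2.76 ± 0.92 (adjusted p = 0.158) for NDUFS1. Without DLD1 controls 2 and 3, which keeps only DLD1 control 1, the median difference over the members was -0.01, against 0.16 as fitted. There the difference was -0.44 for NDUFS1, 0.22 for COX6B1, -0.56 for NDUFA5 and -0.41 for NDUFB5. With the trend along GC content and length removed it was -0.22 for NDUFA5 and 0.29 for COX6B1. For CYCS it was -0.36 with an approximate 95% interval of -0.73 to 0.02, for ATP5G3 0.34 with -0.02 to 0.70, for ATP5A1 0.24 with -0.03 to 0.51, for ATP5J 0.18 with -0.12 to 0.47 and for NDUFB2 0.33 with -0.10 to 0.76. For these 5 the interval includes 0 and differences as large as the effect in a line, so neither like nor unlike effects were shown.

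Averaged over the 2 lines, 5 members fell (6.41%, near the 5.3% of all tested genes called lower) and 0 rose (against 6.27% called higher). Of the 78 members, 72 were below 0 (92.3%, against 50.4% of all tested genes). CYCS had an average log2 fold change of -0.41 ± 0.10 (SE, adjusted p = 0.0139) and was called in all 22 alternative fits, though with the trend along GC content and length removed it was -0.24. ATP5C1 (now ATP5F1C), the rotating gamma subunit, had 144, 167 and 156 CPM in DLD1 with lactate, against 196, 189 and 169.8 CPM in DLD1 controls, and 184, 169.6 and 181 CPM in SW480 with lactate, against 229, 209.7 and 211 CPM in SW480 controls. Its lactate libraries lay below the controls in both lines, with an average of -0.27 ± 0.07 (SE, adjusted p = 0.0196). NDUFV2 had 97.9, 104 and 107 CPM in SW480 with lactate and 113, 110.4 and 112 CPM in SW480 controls, and an average of -0.21 ± 0.06 (SE, adjusted p = 0.0406). The averages of NDUFC2 and ATP5J were -0.56 ± 0.14 and -0.29 ± 0.08 (SE, adjusted p of 0.0204 and 0.0248). Of the 22 alternative fits, NDUFC2 was called in 17, ATP5C1 in 15, ATP5J in 13 and NDUFV2 in 9. With the trend removed the averages were -0.10 for ATP5C1 and -0.11 for ATP5J, no longer called (adjusted p of 0.0669 and 0.0911), and -0.12 for NDUFV2 (adjusted p = 0.0468). The average uses the same libraries as the effects within each line. Without SW480 lactate 2, SW480 control 1, DLD1 lactate 1 or DLD1 lactate 3, 1 member was called lower (1.28%, against 2.4%, 2.06%, 2.16% and 2.86% of all genes in these fits), and without DLD1 control 2, 36 were (46.2%, against 8.46%).

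Untreated DLD1 and untreated libraries labelled SW480 differed in many members. In DLD1 controls 13 of 78 (16.7%) were higher and 29 (37.2%) lower, where 33.6% of all tested genes were called higher and 37.3% lower. Complex IV had 6 lower and 0 higher of 11, complex V 6 lower and 2 higher of 15, complex I 13 lower and 7 higher of 36, complex III 2 lower and 1 higher of 9, and complex II 2 lower and 1 higher of 4. COX7B, a small subunit of complex IV, had 137, 105 and 117 CPM in DLD1 controls, against 295, 298 and 254 CPM in SW480 controls, a log2 fold change of -1.24 ± 0.13 (SE, adjusted p = 6.62e-07). ATP5B had 953, 849 and 953 CPM in DLD1 controls and 1686, 1529 and 1558 CPM in SW480 controls (-0.79 ± 0.09, adjusted p = 1.6e-06). Both genes were lower in DLD1 without overlap. NDUFS4, an accessory subunit of the N module, had 38.2, 27.3 and 33.3 CPM in DLD1 controls and 69.9, 77.8 and 67.6 CPM in SW480 controls (-1.12 ± 0.13, adjusted p = 1.73e-06). NDUFS5, of the membrane arm, had 96.9, 63.7 and 82.6 CPM in DLD1 controls and 168, 163 and 158 CPM in SW480 controls (-1.01 ± 0.13, adjusted p = 4.87e-06). NDUFA9, near the joint of the arms of complex I, stood the other way, with 147, 124 and 136 CPM in DLD1 controls, against 77.2, 74.7 and 66.6 CPM in SW480 controls (0.90 ± 0.11, adjusted p = 3.04e-06).

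Among the other genes lower in DLD1, the log2 fold change was -1.20 ± 0.17 (SE) for COX5B, -1.14 ± 0.18 for NDUFA1, -1.09 ± 0.19 for NDUFB11, -0.90 ± 0.14 for NDUFA4, -0.89 ± 0.12 for NDUFV3, -0.86 ± 0.14 for ATP5G2, -0.72 ± 0.12 for NDUFB9 and -0.58 ± 0.16 for ATP5G1. NDUFA1, NDUFB11 and COX7B are the members on chromosome X. Among those higher, it was 0.64 ± 0.11 for SDHD, 0.61 ± 0.16 for ATP5S (now DMAC2L), 0.51 ± 0.13 for ATP5SL (now DMAC2), 0.51 ± 0.12 for NDUFB3, 0.49 ± 0.10 for ATP5F1 (now ATP5PB), 0.42 ± 0.16 for UQCR10, 0.38 ± 0.15 for NDUFA5, 0.36 ± 0.10 for ATP5A1 and 0.25 ± 0.09 for NDUFV2. NDUFA6, with 0 counts in SW480, is also among the 13. Partners within a complex stood on opposite sides: ATP5A1 was higher and ATP5B lower, and SDHD was higher while SDHA (-0.39 ± 0.11) and SDHC (-0.39 ± 0.10) were lower. SDHB (-0.10 ± 0.10, adjusted p = 0.360), COX4I1 (0.02 ± 0.14, adjusted p = 0.901) and CYC1 (0.00 ± 0.17) did not pass the test. NDUFS1 was called higher, with 2.08 ± 0.64, and had -0.23 without DLD1 controls 2 and 3.

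With the trend along GC content and length removed, 32 members were higher in DLD1 controls (41.0%, against 40.5% of all tested genes) and 24 lower (30.8%, against 37.7%), and the median was 0.10, against -0.10 as fitted. CYCS was then called higher (0.27, against -0.10 as fitted), and SDHC was no longer called (0.01). COX7B, ATP5B, NDUFS4, NDUFS5 and NDUFA9 stayed called in the same direction, with -0.78 for COX7B, -0.71 for NDUFS4 and -0.64 for NDUFS5. Several values grew, among them those of NDUFB3 to 0.95, ATP5S to 0.98, UQCR10 to 0.73 and NDUFV2 to 0.56. Over the members the removal made the trend steeper, with a rho to GC content of -0.12 as fitted and -0.33 after. In the 21 members under 45% GC the median went from 0.07 to 0.38, with 6 and 14 called higher. In the 20 with 55% GC or more it went from -0.06 to -0.04, with 1 and 3 called higher. Without DLD1 control 2, 23 members were higher (29.5%, against 34.5% of all genes) and 26 lower (33.3%, against 38.7%). The line and any other difference between these libraries, the missing EPCAM included, cannot be told apart.

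**Figure D4:**
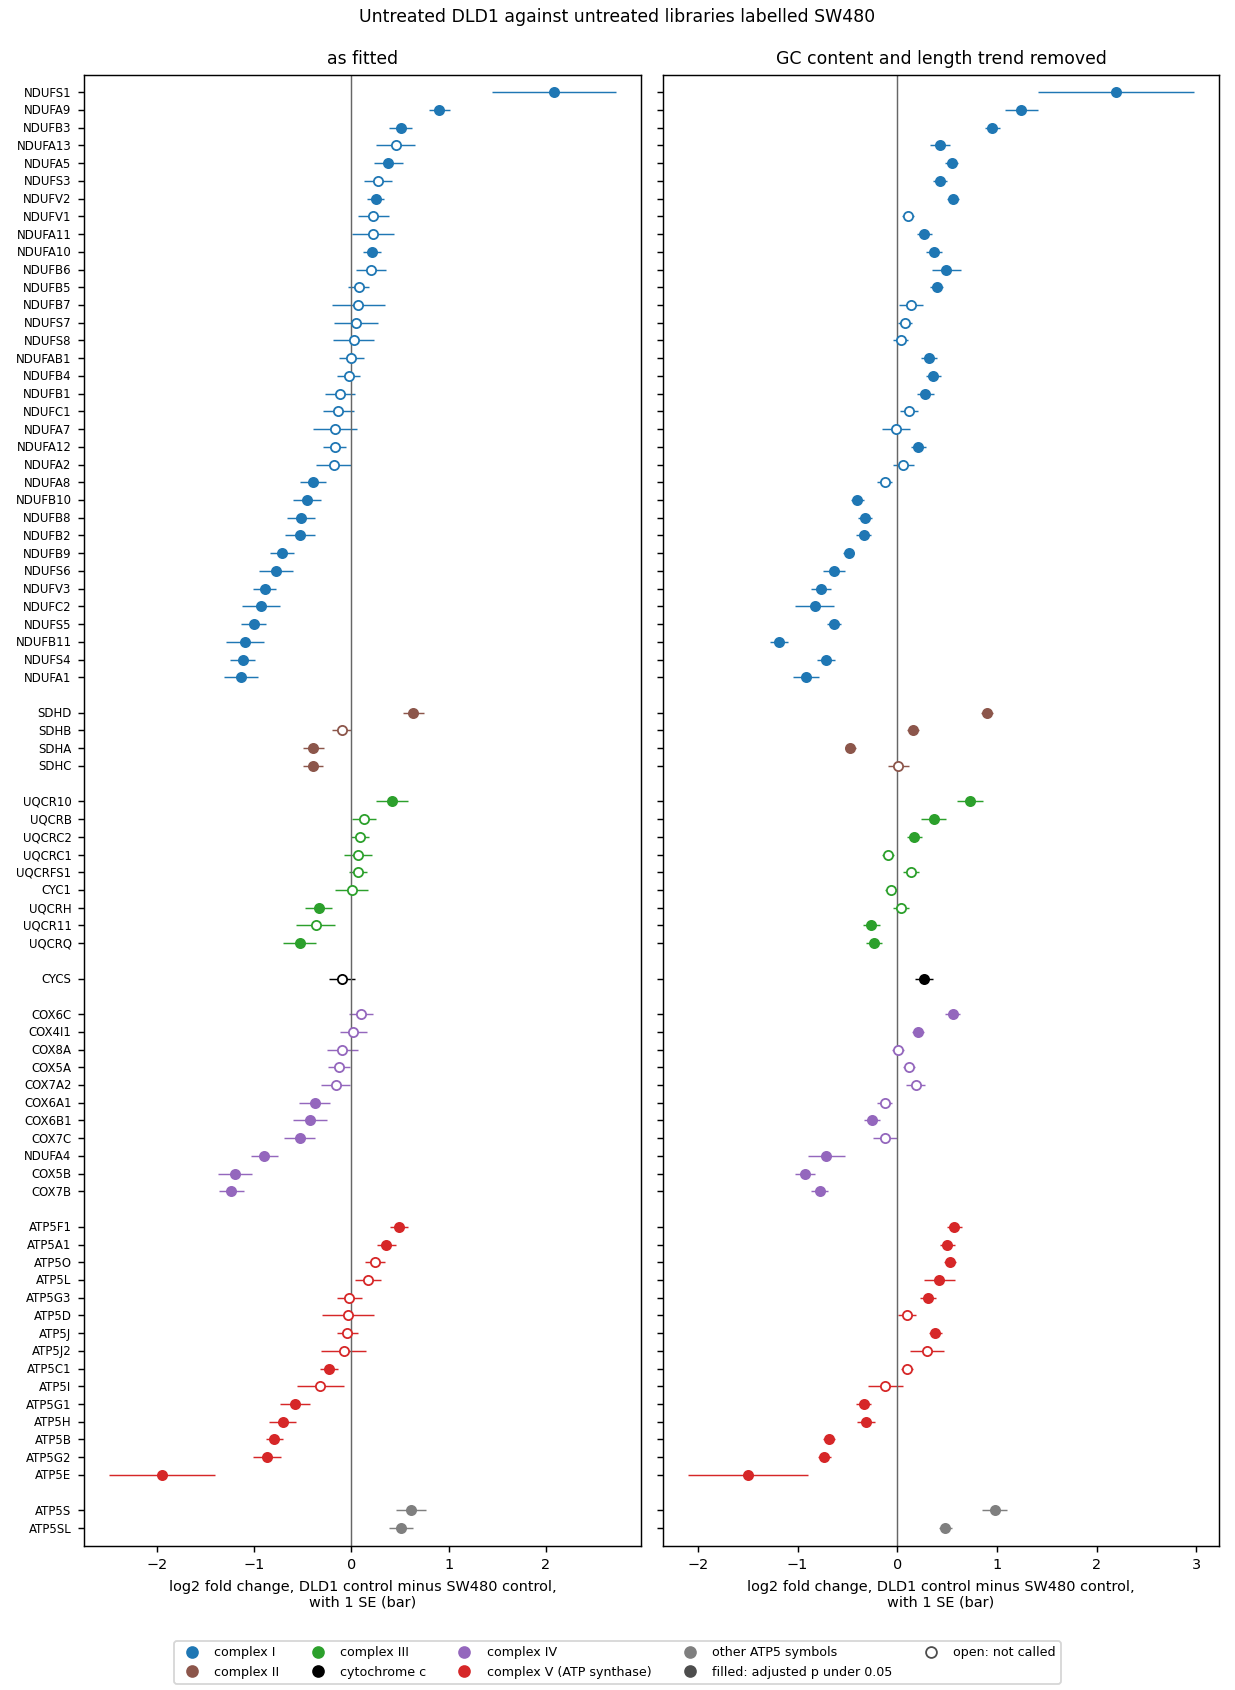
Log2 fold change of DLD1 controls over SW480 controls for the tested members by complex, as fitted (left) and with the trend along GC content and length removed (right); bars are 1 SE and filled points are called at an adjusted p under 0.05. COX7B lies below 0 and NDUFA9 above 0 in both panels; NDUFA6, with 0 counts in the libraries labelled SW480, and 1 further member are not drawn.

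The mitochondrially encoded subunits join the members in the same complexes. In the libraries labelled SW480, 10 of 13 fell with lactate (76.9%, against 5.59% of all tested genes), 0 rose, and the median was -0.55. COX3, a core subunit of complex IV, averaged 4255 ± 77.2 CPM with lactate and 7769 ± 768 CPM in SW480 controls, COX2, the core subunit that receives electrons from cytochrome c, 4304 ± 477 CPM with lactate and 7262 ± 494 CPM in SW480 controls, and ND1, of complex I, 1046 ± 52.7 CPM with lactate and 1749.7 ± 122 CPM in SW480 controls (SD, n = 3 each). In DLD1 edgeR called 0 of 13, 1 had an unadjusted p under 0.05 (7.69%, against 18.5%), and the median was -0.03. Together the 13 genes held 5.05% ± 0.0694 of all counts in DLD1 with lactate, 5.06% ± 0.175 in DLD1 controls, 3.60% ± 0.159 in SW480 with lactate and 4.93% ± 0.239 in SW480 controls. The 81 nuclear members held 1.03% ± 0.0824 in DLD1 with lactate, 1.07% ± 0.154 in DLD1 controls, 1.03% ± 0.0192 in SW480 with lactate and 1.21% ± 0.0596 in SW480 controls (SD, n = 3 each). The ratio of mitochondrially encoded to nuclear counts was 4.52 to 5.46 in DLD1 with lactate and 4.35 to 5.44 in DLD1 controls, which overlap. It was 3.41 to 3.62 in SW480 with lactate and 4.03 to 4.10 in SW480 controls, which do not.

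**Figure D5:**
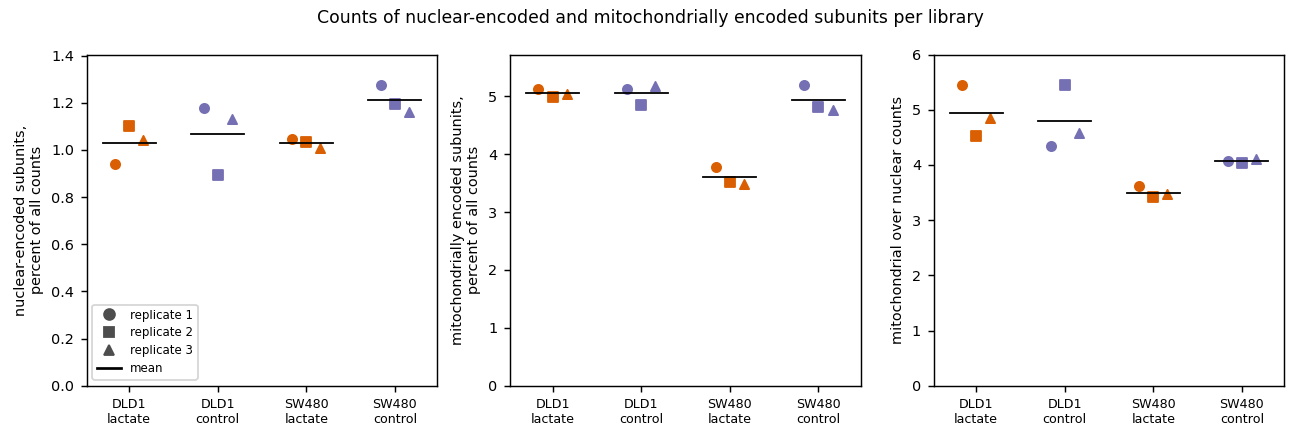
Percent of all counts held by the 81 nuclear members, percent held by the 13 mitochondrially encoded subunits, and the ratio of the mitochondrially encoded to the nuclear counts, per library, with the mean of each group of 3. The SW480 lactate libraries lie below the SW480 controls in all 3 panels, while the DLD1 groups overlap in each.

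Other genes of the pathway were counted by lists. Of 49 tested assembly factors, 7 fell with lactate in the libraries labelled SW480 (14.3%, against 5.59% of all tested genes), 0 rose, and the median was -0.23. TMEM70, an assembly factor of the ATP synthase, averaged 21.1 ± 2.46 CPM with lactate and 32.9 ± 0.258 CPM in SW480 controls (SD, n = 3 each, log2 fold change -0.64 ± 0.11, edgeR adjusted p = 0.00201). COA7 (-0.46 ± 0.12) and COA3 (-0.50 ± 0.14) serve complex IV, and NDUFAF4 (-0.47 ± 0.13), COA1 (-0.41 ± 0.11) and FOXRED1 (-0.37 ± 0.11) complex I. Of 74 tested mitochondrial ribosomal protein genes, 9 fell (12.2%, against the same 5.59%), 0 rose, and the median was -0.19. In DLD1 edgeR called 0 of both lists, and both medians were -0.16. There, 11 assembly factors (22.4%) and 22 ribosomal protein genes (29.7%) had unadjusted p under 0.05, against 18.5% of all tested genes. Of 15 genes for the upkeep of mitochondrial DNA and RNA, 3 fell in the libraries labelled SW480 (20.0%, against 5.59%) and 1 rose: C10orf2, the mitochondrial helicase (-0.50 ± 0.11), TRMT10C, of mitochondrial RNase P (-0.65 ± 0.15), and PNPT1, an RNA-degrading enzyme (-0.48 ± 0.13), fell and POLG, the DNA polymerase (0.40 ± 0.12), rose.

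Of the isoforms and paralogs of members, NDUFA4L2, a hypoxia-induced paralog of NDUFA4, rose in the libraries labelled SW480, with 23.1 ± 3.34 CPM with lactate and 9.24 ± 1.03 CPM in controls (log2 fold change 1.32 ± 0.22, edgeR adjusted p = 0.00201). In DLD1 it averaged 1.35 ± 0.671 CPM with lactate and 0.622 ± 0.253 CPM in controls (edgeR adjusted p = 0.181). C15orf48, another paralog of NDUFA4, averaged 28.6 ± 2.81 CPM with lactate and 22.4 ± 2.32 CPM in SW480 controls (edgeR adjusted p = 0.135). COX4I2, the hypoxic form of COX4I1, had 0 counts in all libraries. MXI1, a MYC antagonist, rose in the libraries labelled SW480 (0.82 ± 0.12, adjusted p = 0.000982), and ATPIF1, the inhibitor of the ATP synthase, had -0.01 ± 0.15 (adjusted p = 0.990). Of 14 regulators of respiratory genes, the transcription factor NRF1 (-0.58 ± 0.14, adjusted p = 0.0156) and the coactivator PPRC1 (-0.36 ± 0.11, adjusted p = 0.0393) fell and MYC rose (0.43 ± 0.11, adjusted p = 0.0242) in the libraries labelled SW480. The 2 that fell are 14.3% of the 14, against 5.59% of all tested genes. In DLD1 edgeR called 0 of the 14, with 4 at unadjusted p under 0.05 (28.6%, against 18.5%). TFAM, which packages and transcribes mitochondrial DNA, had -0.50 ± 0.16 in DLD1 and -0.32 ± 0.16 in the libraries labelled SW480 (adjusted p of 0.154 and 0.200). PPARGC1A, the coactivator PGC-1 alpha, averaged 0.187 ± 0.0824 CPM in DLD1 controls and 24.6 ± 1.37 CPM in SW480 controls.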

How the data were processed

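Raw read counts per gene symbol were deposited by the authors for 12 libraries of total RNA; the submitters' processing notes name HISAT2 and the GRCh38 build. Tool versions, the counter, its annotation and its strand setting: not given in the sources used here. Counts were fitted with edgeR 4.0.16 in R 4.3.3 (TMM scaling, filterByExpr, robust quasi-likelihood, 1 mean per group over all libraries, two-sided), and p-values were Benjamini-Hochberg adjusted over all tested genes. P-values rest on an estimate of the spread per gene that all 12 libraries share, with 3 a group, moderated across genes. A p-value for SW480 therefore also carries the spread of the DLD1 libraries. Levels are TMM-scaled CPM; approximate intervals are 95% from the SE. DESeq2 1.42.0 and limma-voom (limma 3.58.1), other scalings and filters, a replicate block, removal of a GC content and length trend (spline with 5 degrees of freedom) and left-out libraries were alternatives. The fit was run on simulated counts with the same spread in every group, which cannot show how it treats the unequal spread of these groups. Lengths, GC content and overlaps came from GENCODE on GRCh38. Libraries were not paired by replicate number. Of 6 same-numbered pairs, 3 had a correlation of their deviations over 0.1, so a pairing was not excluded. The members, lists and tests were chosen with earlier results of these data known. Named members were all called ones up to 12 per comparison and direction, those with the smallest p where under 5 were called, and a fixed set of well-known subunits. A member that this rule would name is not reported here.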

Additional observations from a re-analysis of the deposited data

Results flagged for a closer look

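The lactate effect differed between the lines for 3 of 13 mitochondrially encoded partners of the members, by edgeR's test of the difference itself (DLD1 minus SW480). These are 23.1%, against 0.728% of all tested genes, and the difference was above 0 in all 13. For COX3 the difference was 0.85 ± 0.14 on the log2 scale (SE, adjusted p = 0.0168), with an effect of -0.02 in DLD1 and -0.87 in the libraries labelled SW480. For COX2 it was 0.73 ± 0.14 (adjusted p = 0.0337), with -0.03 in DLD1 and -0.75 in the libraries labelled SW480. For ND1 it was 0.64 ± 0.14 (adjusted p = 0.0461), with -0.11 in DLD1 and -0.74 in the libraries labelled SW480. Over 22 alternative fits COX3 ran from 0.76 to 0.90 and was called in 17 (adjusted p from 3.92e-08 to 0.0707), COX2 from 0.60 to 0.77, called in 12 (4.11e-05 to 0.125), and ND1 from 0.56 to 0.70, called in 12 (2.07e-04 to 0.175). Summed markers moved with lactate as well, epithelial and immune in the libraries labelled SW480 and immune and endothelial in DLD1, and their part was not tested.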

How the results depend on the processing

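Numbers in parentheses are calls over all tested genes, of 17572 unless another number is given. In the libraries labelled SW480, 5 members were called (2183). They numbered 13 without a filter (2569 of 36138), 9 with DESeq2 (2822) and 1 with the replicate block. After removing the trend along GC content and length there were 21 (4972), and 18 with both block and trend removal (4697). The line fitted alone gave 35 (4783 of 15826). Without DLD1 controls 2 and 3 there were 30, where calls over all tested genes also rose. When a log2 change of 0.5 or more was also required, 2 remained. With 1 library left out there were 0 to 24 (from 689 of 18001 to 4347 of 18105). In DLD1, 0 members were called (67). They numbered 3 without a filter (855 of 36138), 2 with DESeq2 (683) and 3 with the trend removed (490). With block and trend removal there was 1 (344), and with 1 library left out 0 to 9 (from 3 of 18072 to 3791 of 18063). For the difference, 0 members were called (128). They numbered 1 without a filter (837 of 36138) and 1 with DESeq2 (712). With 1 library left out there were 0 to 3 (from 9 of 18001 to 1508 of 18063). For the average, 5 members were called (2033). They numbered 10 without a filter (2318 of 36138) and 15 with DESeq2 (2734). With the trend removed there were 20 (4077), and 17 with block and trend removal (3819). Without both controls there were 37, where calls over all tested genes also rose. At 0.5 or more there was 1. With 1 library left out there were 1 to 36. Over all genes these fits gave 930 of 18001 to 4016 of 18063. Between untreated lines 42 were called (12448), and 34 to 49 with 1 library left out (from 11736 of 18001 to 13260 of 18105). The trend removal gave 32 higher and 24 lower (13734), and with the block 31 higher and 23 lower (13602). NDUFS1 reversed without DLD1 controls 2 and 3, to 0.22 for DLD1 lactate and -0.23 between untreated lines. The cause was not tested. Whether the replicate numbers pair the samples was not settled. Over 6 same-numbered pairs r was -0.07 to 0.17, 3 over 0.1, and over other-numbered pairs -0.23 to 0.13. The block gave 1 call in SW480 (1731), 0 in DLD1 (34) and 0 for the difference (93). For the average it gave 4 (1524), and between lines 40 (12211). The line fitted alone gives no value for the difference, the average or the untreated lines. A left-out library leaves 2 in its group. NDUFA6, NDUFA3, ATP5E, NDUFC2 and NDUFS1 had few counts, which limits their precision.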
